A study of Mus musculus with 6 samples.

Results

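The genes described here are the Wnt ligands, the Frizzled receptors, the secreted inhibitors of the Sfrp and Dkk families, the co-receptor genes Lrp5 and Lrp6, and Axin2 and Lef1, as measured in lung endothelial cells of Zmpste24 knockout and wild type mice. They were taken by symbol (Wnt, Fzd, Sfrp or Dkk followed by a number, plus the 4 named genes), which gave 41 of the 53735 genes in the deposited table: 19 Wnt, 10 Fzd, 4 Sfrp and 4 Dkk genes, Lrp5, Lrp6, Axin2 and Lef1. Of these, 26 averaged 10 or more normalized counts across all libraries and were tested among 15229 such genes.

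The 4 knockout libraries (knockout 1 to 4) came from cells of ZMPSTE24 knockout mice, and the 2 wild type libraries (wild type 1 and 2) from cells of ZMPSTE24 wild type mice. Zmpste24 encodes the protease that matures prelamin A to lamin A, and the series concerns endothelial dysfunction in progeria. All cells were isolated with beads against CD31 and then ICAM2, grown on gelatin to confluence without passage or treatment, and used for poly(A) RNA sequencing. Strain, age, sex, the deleted part of the gene and whether each library came from its own animal are not given in the sources used here, and p-values therefore measure only how these libraries differ, which can include technical variation. The labels mention 2 cohorts of mice and assign no sample to either.

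Wnt proteins are secreted lipid-modified ligands that bind Frizzled receptors together with the co-receptors Lrp5 or Lrp6. Binding stabilises beta-catenin, which acts with TCF and LEF factors to switch on target genes, among them Axin2, whose product in turn limits the signal. Sfrp proteins bind Wnt ligands outside the cell, and Dkk1, Dkk2 and Dkk4 act on Lrp5 and Lrp6. In endothelium the pathway is known for its part in vessel growth and barrier formation, with Fzd4 as the receptor of norrin in the retina.

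The libraries held 36844042 to 45613685 reads in the knockout group and 40582588 and 32699024 reads in wild type 1 and 2. Knockout 1 and wild type 1 (the first set below) stood apart from knockout 2, 3, 4 and wild type 2 (the second set): across genes, libraries correlated at r = 0.978 to 0.990 within a set and at 0.908 to 0.935 between sets. Zmpste24 itself had 5079, 3764, 3599 and 3720 counts in knockout 1 to 4 and 5503 and 4148 counts in wild type 1 and 2 (log2 difference −0.26 ± 0.20, SE, limma adjusted p = 1.00). A count over the whole gene cannot check the genotype labels when the deleted part is not named, and "knockout" below follows the labels. The series text describes the cultures as almost purely endothelial by staining and lipoprotein uptake. The 10 endothelial markers were all expressed, and so were those of other cells: the summed fibroblast list (10 of 10 expressed) reached 407197 to 476365 counts in knockout libraries and 432739 and 482741 in wild type, above the endothelial sum of 38317 to 104882 in knockout libraries and of 175577 and 56797 in wild type 1 and 2. Most of the fibroblast sum was collagen RNA. Col1a1 and Col1a2 had 132850 and 168691 counts in knockout 1 and 173437 and 184725 in wild type 1. Without Col1a1, Col1a2 and Col3a1, the fibroblast sum was below the endothelial sum in the first set and above it in the second. The mesothelial list (8 of 8 expressed) summed to 82673, 14521, 10051 and 19589 counts in knockout 1 to 4 and to 37032 and 20056 in wild type 1 and 2. The macrophage and leukocyte list (11 of 11 expressed) summed to 4232, 34896, 47821 and 29338 counts in knockout 1 to 4 and to 5223 and 34796 in wild type 1 and 2. The lung epithelial list (5 of 9 expressed) summed to 81.1 to 583 counts in knockout libraries and to 64.9 and 332 in wild type 1 and 2, with Nkx2-1 at 0 in knockout 1 and wild type 1. In such bulk samples, fewer cells of a type and less RNA per cell cannot be told apart.

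No member of the Wnt system passed the test between genotypes. By limma, 0 of the 26 tested members were called, against 1 of 15229 genes (0.00657%). EdgeR (0.00657% of all genes called) and DESeq2 (0.046%) also called 0 members with genotype alone, where DESeq2 gave no p-value for Sfrp4. After the library set was added to the model ("adjustment for library set"), limma called 0.00657% of all genes, edgeR 0.0131% and DESeq2 0.328%, and again each called 0 members. Members with an unadjusted p under 0.05 numbered 0 in each of these 6 fits, where the share of all genes was 0.939% (limma), 0.998% (edgeR) and 1.43% (DESeq2) with genotype alone and 3.51%, 3.51% and 3.66% after adjustment for library set. Of the 26 tested members, 0 had genotype ranges that did not overlap, against 2.36% of all genes with knockout higher and 2.32% with knockout lower. With other choices of libraries or terms in limma, some members had an unadjusted p under 0.05 and none an adjusted one. These were Sfrp2, Dkk3 and Axin2 with the title number as a replicate block (3 of 26, against 5.13% of all genes), Fzd6 and Sfrp4 without knockout 1 (2 of 26, against 4.43%), Dkk3 without knockout 4 (1 of 26, against 0.827%), and Fzd1 and Axin2 without wild type 2 (2 of 26, against 5.53%). In the block fit, numbers 3 and 4 each hold a knockout library alone, which adds nothing to the genotype term. The difference there rests on the libraries numbered 1 and 2. For Sfrp2, Dkk3 and Axin2, knockout 3 was above wild type 2 and knockout 4 below it. The members varied between libraries all the same: the highest library was a median of 2.53 times the lowest over the 26 members, against 1.69 times over the 15068 tested genes with no library at 0. For 9 members this range was under 2-fold and for 8 it was over 4-fold.

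**Figure D1:**
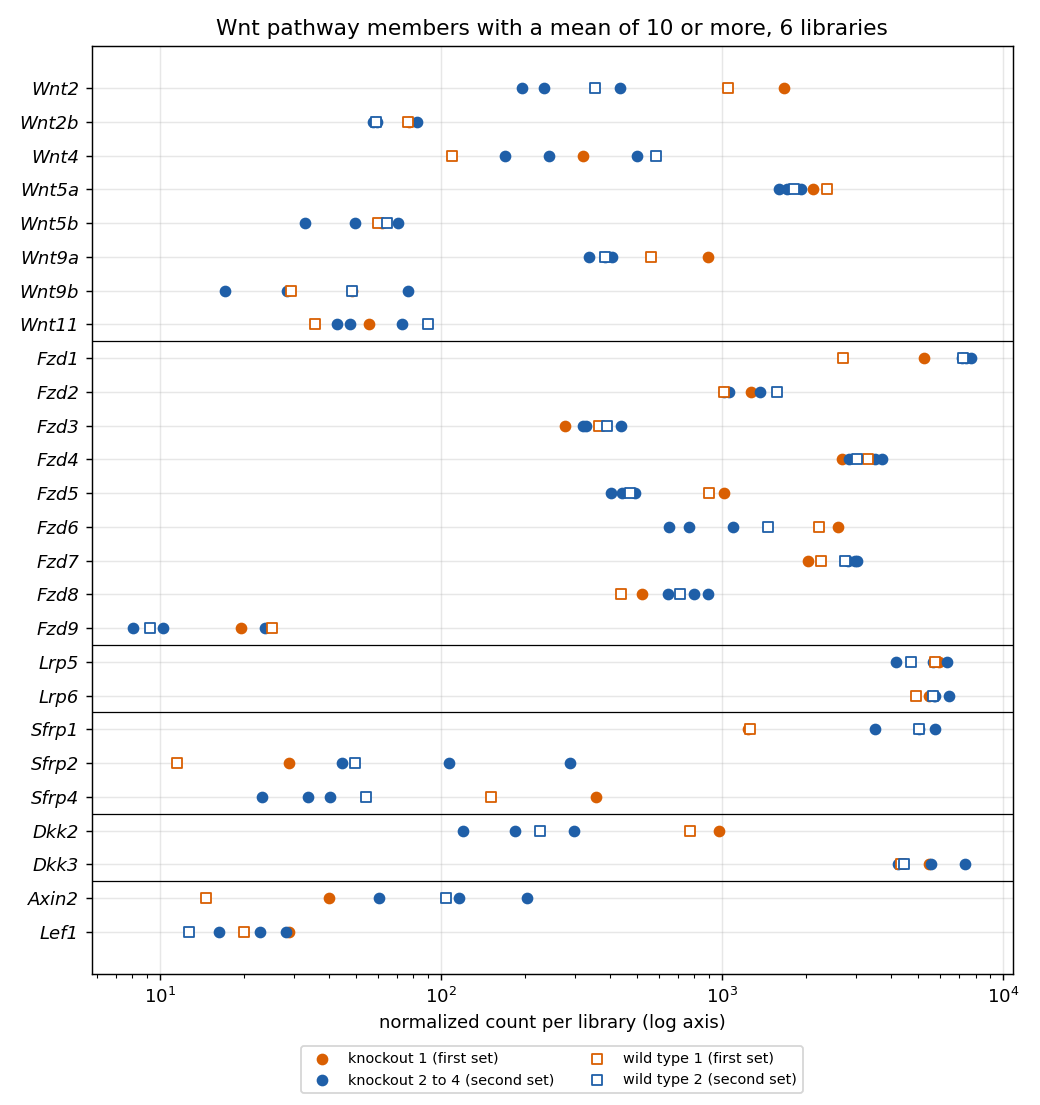
Normalized counts of the 26 tested members on a log axis, 1 symbol per library; filled circles are knockout libraries, open squares wild type libraries, and orange and blue mark the first and second library sets. The first set lies above the second for Wnt2, Wnt5a, Wnt9a, Fzd5, Fzd6, Sfrp4 and Dkk2 (26.9% of members, 30.7% of all tested genes). It lies below the second for Fzd1, Fzd7, Fzd8, Lrp6, Sfrp1, Sfrp2 and Axin2 (26.9% and 32.7%). Knockout and wild type overlap for every member shown.

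Promoters are shown for 4 members that the results turn on, Fzd1 as the leading receptor, Dkk2 as a member high in the first set, and Sfrp2 and Axin2, which ordered the libraries alike. Each runs from 250 bases before to 50 bases after a RefSeq transcript start, 5′ to 3′ on the strand of the gene in GRCm38.p6. Capitals mark the letters taken here as the TCF/LEF core (CTTTGA, or TCAAAG on the other strand) and the TATA core (TATAAA, or TTTATA). Variants of these letters were not searched.
Fzd1, chr5:4758167-4758466, minus strand: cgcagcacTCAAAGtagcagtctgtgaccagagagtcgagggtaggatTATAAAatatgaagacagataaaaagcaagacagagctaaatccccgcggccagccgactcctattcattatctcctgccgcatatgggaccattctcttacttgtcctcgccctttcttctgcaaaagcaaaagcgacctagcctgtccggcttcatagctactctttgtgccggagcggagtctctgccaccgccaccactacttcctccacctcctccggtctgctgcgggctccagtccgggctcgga
Dkk2, chr3:132085042-132085341, plus strand: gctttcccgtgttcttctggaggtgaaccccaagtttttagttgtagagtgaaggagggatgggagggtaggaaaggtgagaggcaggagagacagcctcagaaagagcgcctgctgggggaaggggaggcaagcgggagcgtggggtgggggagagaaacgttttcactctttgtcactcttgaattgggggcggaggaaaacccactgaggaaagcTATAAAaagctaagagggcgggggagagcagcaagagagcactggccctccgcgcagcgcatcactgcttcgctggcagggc
Sfrp2, chr3:83766071-83766370, plus strand: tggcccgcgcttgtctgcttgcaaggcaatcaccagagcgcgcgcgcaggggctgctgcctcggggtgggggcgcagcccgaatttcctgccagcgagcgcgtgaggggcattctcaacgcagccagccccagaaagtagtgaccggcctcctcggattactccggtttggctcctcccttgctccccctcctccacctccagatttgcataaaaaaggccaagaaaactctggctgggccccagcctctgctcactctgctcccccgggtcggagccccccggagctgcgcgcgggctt
Axin2, chr11:108920099-108920398, plus strand: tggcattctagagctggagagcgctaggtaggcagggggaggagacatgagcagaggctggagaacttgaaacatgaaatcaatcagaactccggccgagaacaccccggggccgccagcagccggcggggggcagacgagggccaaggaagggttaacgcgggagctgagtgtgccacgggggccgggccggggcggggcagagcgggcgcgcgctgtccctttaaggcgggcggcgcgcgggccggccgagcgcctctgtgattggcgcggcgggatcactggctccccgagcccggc
The Fzd1 window held 1 TCF/LEF core starting 242 bases before the start and 1 TATA core 202 bases before it. These distances are from the RefSeq start, and the whole window lies upstream of Fzd1 as GENCODE places it (chr5:4753839-4758035). The Dkk2 window held 1 TATA core starting 32 bases before the start. Neither set of letters was in the windows of Sfrp2 and Axin2, which had a GC content of 66.0% and 70.0%, against 54.0% for Fzd1 and 57.7% for Dkk2. RefSeq promoters were matched for 27 of the 41 members, 33 windows in all, of which 5 held a TCF/LEF core (Fzd1, Lef1, Wnt5b, Wnt11 and Dkk1). Lef1, Wnt5b and Wnt11 also had windows at other starts, which did not hold it. The Lef1 window with the core, chr3:131156044-131156343, lies inside the gene. Of all 32851 promoter windows of this length, 16.0% held this core and 13.6% the TATA core. These are matches of letters, not binding sites, and the windows do not reach introns or distant elements.

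Among the ligands, 8 of 19 were tested, and Wnt5a, Wnt2, Wnt9a and Wnt4 made up most of their transcripts per length. Wnt5a, a ligand known mainly for signalling without beta-catenin, had 2121, 1593, 1705 and 1918 normalized counts in knockout 1 to 4 and 2365 and 1809 in wild type 1 and 2. It was the steadiest of the abundant ligands, at 1834 ± 234 (SD, n = 4) counts in knockout and 2087 ± 393 (SD, n = 2) in wild type, and the groups overlapped. Wnt2 (chr6:17988940-18030585, minus strand, like all gene positions here on GRCm38), a ligand known for its role in lung development and made by lung mesenchyme, had 1660, 233, 195 and 434 counts in knockout 1 to 4 and 1056 and 354 in wild type 1 and 2. It was high in both libraries of the first set and low in the 4 of the second, and the genotypes differed by −0.52 ± 0.95 on the log2 scale (SE, 95% interval −2.85 to 1.81; adjusted p = 1.00 in limma), less than the spread. After adjustment for library set it was 0.03 ± 0.41, and without wild type 1 it was 0.27, the opposite direction.

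Per length, the leading ligand differed between the library sets. Counts per kilobase of exon, with the exons of all transcripts joined, were 736 for Wnt2 and 271 for Wnt5a in knockout 1 and 468 and 302 in wild type 1. In the second set Wnt5a led, with 204, 218 and 245 counts per kilobase in knockout 2 to 4 and 231 in wild type 2, while Wnt2 had 103, 86.7 and 192 in those knockout libraries and 157 in wild type 2. Wnt2 thus held 51.9% of the summed per-kilobase level of the 8 tested ligands in knockout 1 and 45.9% in wild type 1, and 16.9% to 26.2% in the other 4 libraries. Such levels assume that all joined exons are used, which was not checked.

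Wnt9a and Wnt4 also varied, but in different libraries. Wnt9a, a ligand of joint development, had 892, 407, 337 and 386 counts in knockout 1 to 4 and 559 and 386 in wild type 1 and 2. It was higher in the first set, as Wnt2 was. Wnt4, a ligand needed for kidney and Müllerian duct development, had 321, 170, 244 and 500 counts in knockout 1 to 4, and 110 and 585 in wild type 1 and 2. Here the lowest and the highest library were both wild type, and the means of 309 ± 142 (SD, n = 4) in knockout and 348 ± 336 (SD, n = 2) in wild type did not differ beyond that spread. Wnt11 had its highest value, 89.9, in wild type 2 and its lowest, 35.6, in wild type 1, with 42.9 to 72.7 counts in knockout. The remaining tested ligands were low. Wnt2b had 57.5 to 82.1 counts in knockout and 76.4 and 58.8 in wild type 1 and 2. Wnt5b had 32.8 to 70.7 counts in knockout and 59.7 and 64.5 in wild type 1 and 2. Wnt9b had 17.2 to 76.6 counts in knockout and 29.3 and 48.4 in wild type 1 and 2.

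The ligands best known for signalling through beta-catenin in other tissues were near the limit of counting. Wnt1, Wnt3 and Wnt3a had 3, 4 and 3 reads in all 6 libraries together. Wnt7a and Wnt7b, which signal to the endothelium of the brain, had 16 and 7 reads, and Wnt8a, Wnt8b, Wnt10a, Wnt10b and Wnt16 had 4, 3, 18, 28 and 11. Wnt6 was the highest of the 11 ligands not tested. It had 5.14, 4.56, 8.57 and 5.05 normalized counts in knockout 1 to 4, against 11.5 and 12.7 in wild type 1 and 2. All 4 knockout values lay below both wild type values, but at 5 to 11 recovered reads per library and a mean of 7.92 counts Wnt6 was outside the test. Wnt7b, on its 7 reads, had the same ordering, as did 2.32% of the tested genes. The highest value of these 11 ligands in any library was 12.7 counts, so differences between genotypes in them were not tested.

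All Frizzled genes except Fzd10 were tested, and Fzd1 led the family per length in all 6 libraries. Fzd1 (chr5:4753839-4758035, minus strand) had 5257, 7418, 7700 and 7190 counts in knockout 1 to 4 and 2694 and 7241 in wild type 1 and 2. The 4 libraries of the second set, of either genotype, lay within 7190 to 7700, and wild type 1 was the lowest. The log2 difference, 0.63 ± 0.40 (SE; 95% interval −0.353 to 1.605; adjusted p = 1.00 in limma), rested on wild type 1, and without that library it was −0.09. After adjustment for library set it was 0.41 ± 0.20 (SE, limma adjusted p = 0.999), and Fzd1 held 24.5% of the summed per-kilobase level of the tested Frizzled genes in wild type 1 and 38.6% to 50.7% in the other 5 libraries.

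Fzd4, the receptor of norrin and a gene of vascular endothelium, was among the steadiest members. It had 2674, 3714, 3505 and 2826 counts in knockout 1 to 4 and 3314 and 3021 in wild type 1 and 2. Its mean was 3180 ± 507 (SD, n = 4) counts in knockout and 3168 ± 208 (SD, n = 2) in wild type (log2 difference −0.01, 95% interval −0.42 to 0.41). Fzd7, a receptor of epithelial and stem cells, had 2023 to 3041 counts in knockout and 2255 and 2755 in wild type. Fzd2, of the same subfamily as Fzd1 and Fzd7, had 1015 to 1371 counts in knockout and 1022 and 1575 in wild type. Fzd3, a receptor of axon guidance, had 276 to 439 counts in knockout and 366 and 389 in wild type. None of these 4 receptors varied by more than 1.59-fold over the libraries.

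Fzd6 (chr15:39006034-39038188, plus strand), a receptor known for planar cell polarity in skin and hair, showed the largest negative log2 difference of the members. It had 2590, 764, 649 and 1097 counts in knockout 1 to 4 and 2220 and 1462 in wild type 1 and 2. In the second set all 3 knockout libraries were below wild type 2, whereas in the first set knockout 1 was above wild type 1. The log2 difference was −0.73 ± 0.57 (SE, 95% interval −2.13 to 0.68, limma adjusted p = 1.00), −0.42 ± 0.32 after adjustment for library set and −0.84 in the second set alone, which has 1 wild type library. It was −1.14 without knockout 1, −0.48 without knockout 3 and −0.42 without wild type 1. Fzd5, a receptor needed for the vessels of the yolk sac, was likewise higher in the first set, at 1019 counts in knockout 1 and 905 in wild type 1, against 402 to 490 in knockout 2 to 4 and 470 in wild type 2. Fzd8, its close relative, was the other way round, at 519 counts in knockout 1 and 437 in wild type 1, against 644 to 895 in knockout 2 to 4 and 711 in wild type 2. Fzd9 was low, at 8.07 to 23.7 counts in knockout and 25.1 and 9.22 in wild type, and the untested Fzd10 had 38 reads in all.

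The co-receptor genes were abundant and even. Lrp5 had 5929, 6318, 5626 and 4181 counts in knockout 1 to 4 and 5718 and 4727 in wild type 1 and 2. Lrp6 had 5479, 6418, 5703 and 5752 counts in knockout 1 to 4 and 4922 and 5665 in wild type 1 and 2. Lrp6 had the narrowest range of the tested members, 1.30-fold, and its log2 difference was 0.14 ± 0.12 (SE, 95% interval −0.15 to 0.43, limma adjusted p = 1.00). It was also higher in each of the 4 knockout libraries than in the wild type of the set, by log2 0.01 to 0.18, of which 3 share wild type 2. Such an ordering was found for 2 of the 26 members (the other was Lef1), against 10.1% of all genes, and the reverse ordering for 0 members, against 10.8%; the first share is close to that of all genes.

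The secreted inhibitors were dominated by Dkk3 and Sfrp1, and Sfrp2 and Sfrp4 varied most between libraries. Dkk3, a divergent Dickkopf protein that does not act as a typical Wnt inhibitor, had 5452, 7324, 5538 and 4255 counts in knockout 1 to 4 and 4349 and 4439 in wild type 1 and 2. Per length it averaged 1556 counts per kilobase over the libraries, and Fzd1 averaged 1489. Fzd1 was above Dkk3 per length in knockout 3, knockout 4 and wild type 2, and Dkk3 was above Fzd1 in the other 3 libraries. The difference between its means of 5642 ± 1265 (SD, n = 4) counts in knockout and 4394 ± 63.9 (SD, n = 2) in wild type amounted to 0.33 ± 0.22 on the log2 scale (SE; 95% interval −0.19 to 0.86; adjusted p = 1.00 in limma), and knockout 4 lay below both wild type libraries. Sfrp1, a Wnt-binding inhibitor made by fibroblasts, had 1237, 5717, 5016 and 3498 counts in knockout 1 to 4 and 1261 and 5037 in wild type 1 and 2. Knockout and wild type were alike within the first set, at 1237 and 1261 counts, and both were below every library of the second set.

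Sfrp2 (chr3:83766321-83774316, plus strand), a Wnt-binding protein made by mesenchymal cells, had the widest range of the tested members. It had 28.8, 288, 107 and 44.4 counts in knockout 1 to 4 and 11.5 and 49.5 in wild type 1 and 2. Knockout 1 was above wild type 1, and knockout 2 and 3 above wild type 2, but knockout 4 lay just below it. The log2 difference, 1.68 ± 1.05 (SE; 95% interval −0.89 to 4.25; adjusted p = 1.00 in limma), was 1.19 ± 0.75 after adjustment for library set and 1.15 in the second set alone, against its 1 wild type library. Without knockout 2, the highest library, it was 1.07, without wild type 1 it was 0.67 and without wild type 2 it was 2.69.

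Sfrp4 and Dkk2 ran the other way between the sets. Sfrp4 (chr13:19623104-19632994, plus strand), an inhibitor known from bone, had 356, 33.8, 23.1 and 40.4 counts in knockout 1 to 4 and 151 and 54.2 in wild type 1 and 2. Dkk2 (chr3:132085292-132180304, plus strand), which acts on Lrp5 and Lrp6, had 978, 120, 183 and 299 counts in knockout 1 to 4 and 772 and 226 in wild type 1 and 2. Both were high in the first set whatever the genotype, with log2 differences between genotypes of −0.62 ± 1.16 for Sfrp4 and −0.56 ± 0.92 for Dkk2 (SE, limma adjusted p = 1.00 for each). After adjustment for library set these were 0.04 ± 0.50 and −0.02 ± 0.39, and without wild type 1 they changed sign, to 0.11 and 0.33. The archetypal inhibitor gene Dkk1 had 3 reads in all, Dkk4 and Sfrp5 had 1 each.

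Axin2 (chr11:108920349-108950783, plus strand), the feedback target that serves as the usual readout of beta-catenin signalling, was low and uneven. It had 40.1, 203, 117 and 60.6 counts in knockout 1 to 4 and 14.7 and 105 in wild type 1 and 2. The first set was below the second for both genotypes, and within the second set wild type 2 lay between knockout 3 and knockout 4. The log2 difference was 1.12 ± 0.96 (SE, 95% interval −1.23 to 3.46, limma adjusted p = 1.00), 0.62 ± 0.57 after adjustment for library set, and −0.26, the opposite direction, without wild type 1. Lef1 (chr3:131110471-131224356, plus strand), the partner of beta-catenin on DNA, was lower still. It had 28.8, 22.8, 16.3 and 28.3 counts in knockout 1 to 4, and 19.9 and 12.7 in wild type 1 and 2. Each knockout library was above the wild type of its set, by log2 0.34 to 1.10, although the groups overlapped. The log2 difference was 0.53 ± 0.40 (SE, 95% interval −0.45 to 1.52, limma adjusted p = 1.00), or 0.65 ± 0.32 after adjustment for library set (SE, 95% interval −0.16 to 1.46, limma adjusted p = 0.999).

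**Figure D2:**
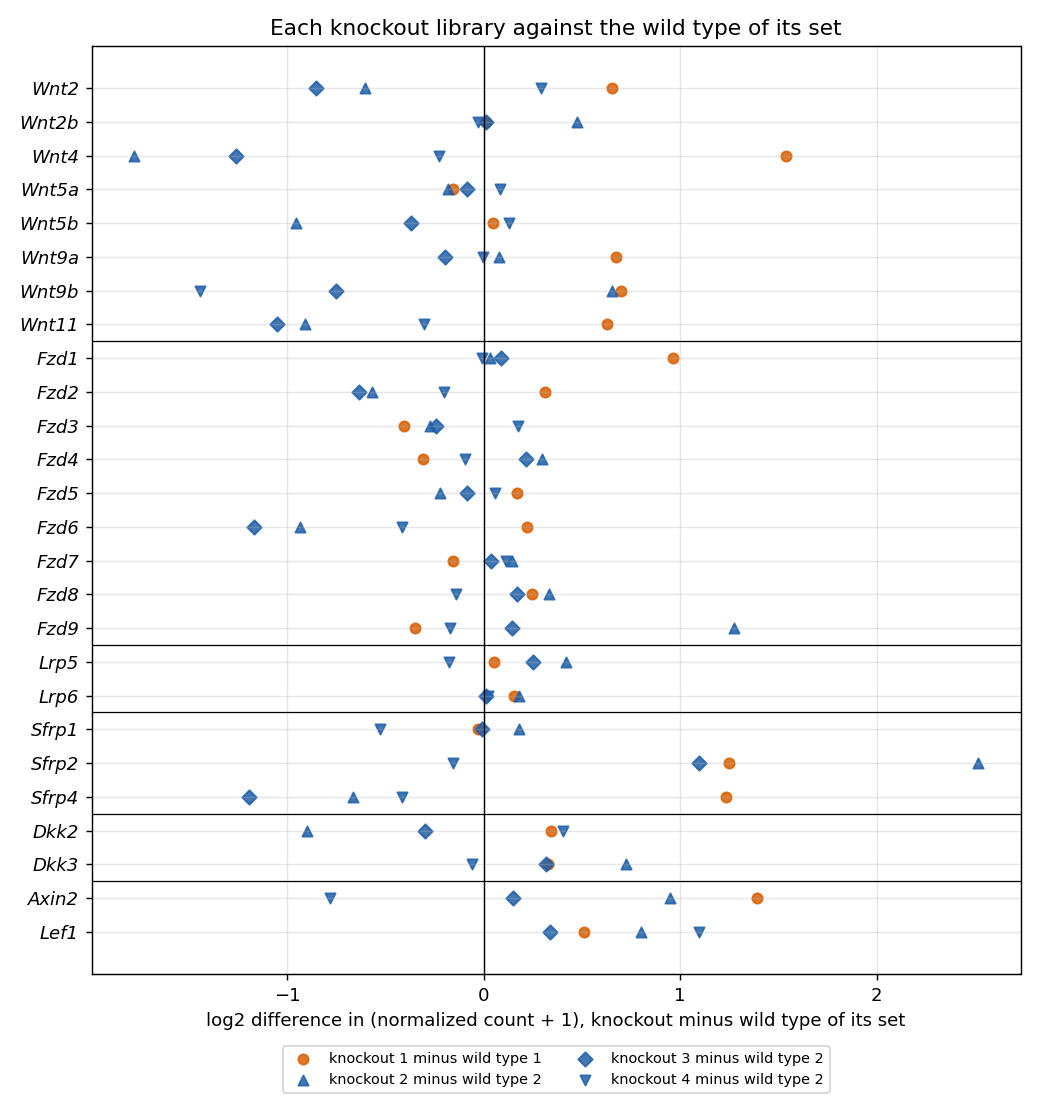
Difference of each knockout library from the wild type library of its set, in log2(normalized count + 1), for the 26 tested members; knockout 1 is set against wild type 1 and knockout 2, 3 and 4 against wild type 2, so the last 3 share wild type 2. Lrp6 and Lef1 lie above 0 in all 4 libraries, and Wnt4 runs from −1.78 in knockout 2 to 1.54 in knockout 1.

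The 18 tested members whose main log2 difference was below 0.5 in size lay between −0.26 and 0.40, and between −0.23 and 0.33 after adjustment for library set. Of all 26, 13 were above 0 and 13 below, with a median of 0.00 for both the members and all genes. After adjustment for library set 14 were above 0 and 12 below, and the median was 0.02 against 0.00 for all genes. The median standard error of a member was 0.42 with genotype alone and 0.23 after adjustment for library set, against 0.27 and 0.15 over all genes.

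Many members differed between the library sets, in shares slightly below those of all tested genes. The sets were drawn from all genes, the members among them, so these differences are given as a description without a test. Wnt2, Wnt5a, Wnt9a, Fzd5, Fzd6, Sfrp4 and Dkk2 were higher in both libraries of the first set than in all 4 of the second, 7 of 26 members (26.9%) against 30.7% of all genes. Fzd1, Fzd7, Fzd8, Lrp6, Sfrp1, Sfrp2 and Axin2 were lower in both, again 7 of 26 (26.9%), against 32.7% of all genes. The mean log2 difference, first set minus second set, was 2.65 for Sfrp4, 2.19 for Wnt2, 2.14 for Dkk2 and 1.34 for Fzd6. It was −2.25 for Sfrp2, −2.14 for Axin2, −1.92 for Sfrp1 and −0.97 for Fzd1. Its median size was 0.55 over the 26 members and 0.41 over all genes.

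Markers of other cell types moved with these members. Fzd6 and Sfrp4 ranked the 6 libraries in the same order as the mesothelial sum given above, from knockout 1 and wild type 1 down to knockout 3, an order found for 0.873% of all tested genes. Of the 8 mesothelial markers, 5 were higher in both libraries of the first set than in all 4 of the second (Msln, Upk3b, Krt19, Upk1b and Muc16). The other 3, Wt1, Lrrn4 and Krt8, were not. Msln, the mesothelin gene and the most abundant of them, had 42001, 6908, 4928 and 9087 counts in knockout 1 to 4 and 19487 and 8844 in wild type 1 and 2. Of the 10 endothelial markers, 8 were also higher in both libraries of the first set. The part of mesothelial or endothelial RNA in the levels of these members was not tested.

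Axin2, Sfrp2 and Fzd8 shared another order, with knockout 2 and 3 highest, then wild type 2, knockout 4 and knockout 1, and wild type 1 lowest, which 2.38% of all tested genes had. None of the markers listed had this order. Pdgfra, the receptor gene of lung fibroblasts, differed from it only in the last places. It had 3946, 69228, 58581 and 34290 counts in knockout 1 to 4 and 5842 and 39694 in wild type 1 and 2. Sftpc, a lung epithelial marker, ordered the libraries as Pdgfra did, an order found for 2.76% of all tested genes. Ptprc, Adgre1, Itgam, Ager and the lung epithelial sum differed from the order of Axin2 only in the first places. Of the 10 fibroblast markers, 7 were lower in both libraries of the first set than in all 4 of the second, and 1, Col1a1, was higher. The fibroblast list as a whole did not follow this order, since Col1a1 and Col1a2, abundant genes of that list, were highest in wild type 1. The smooth muscle and pericyte list (10 of 10 expressed) ran the other way, with 6 of 10 markers higher in both libraries of the first set and 0 lower. It summed to 221349, 132017, 103410 and 69222 counts in knockout 1 to 4, and to 249150 and 76685 in wild type 1 and 2. The macrophage and leukocyte sum, given above, was lower in both libraries of the first set, as were 10 of its 11 markers. Of the 9 lung epithelial markers, all at low counts, 7 were lower in both libraries of the first set and 0 higher. The part of fibroblast, smooth muscle, pericyte, macrophage or lung epithelial RNA in Axin2, Sfrp2 and Fzd8 was not tested. These orders, and the single markers given with them, were picked after the values had been seen.

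**Figure D3:**
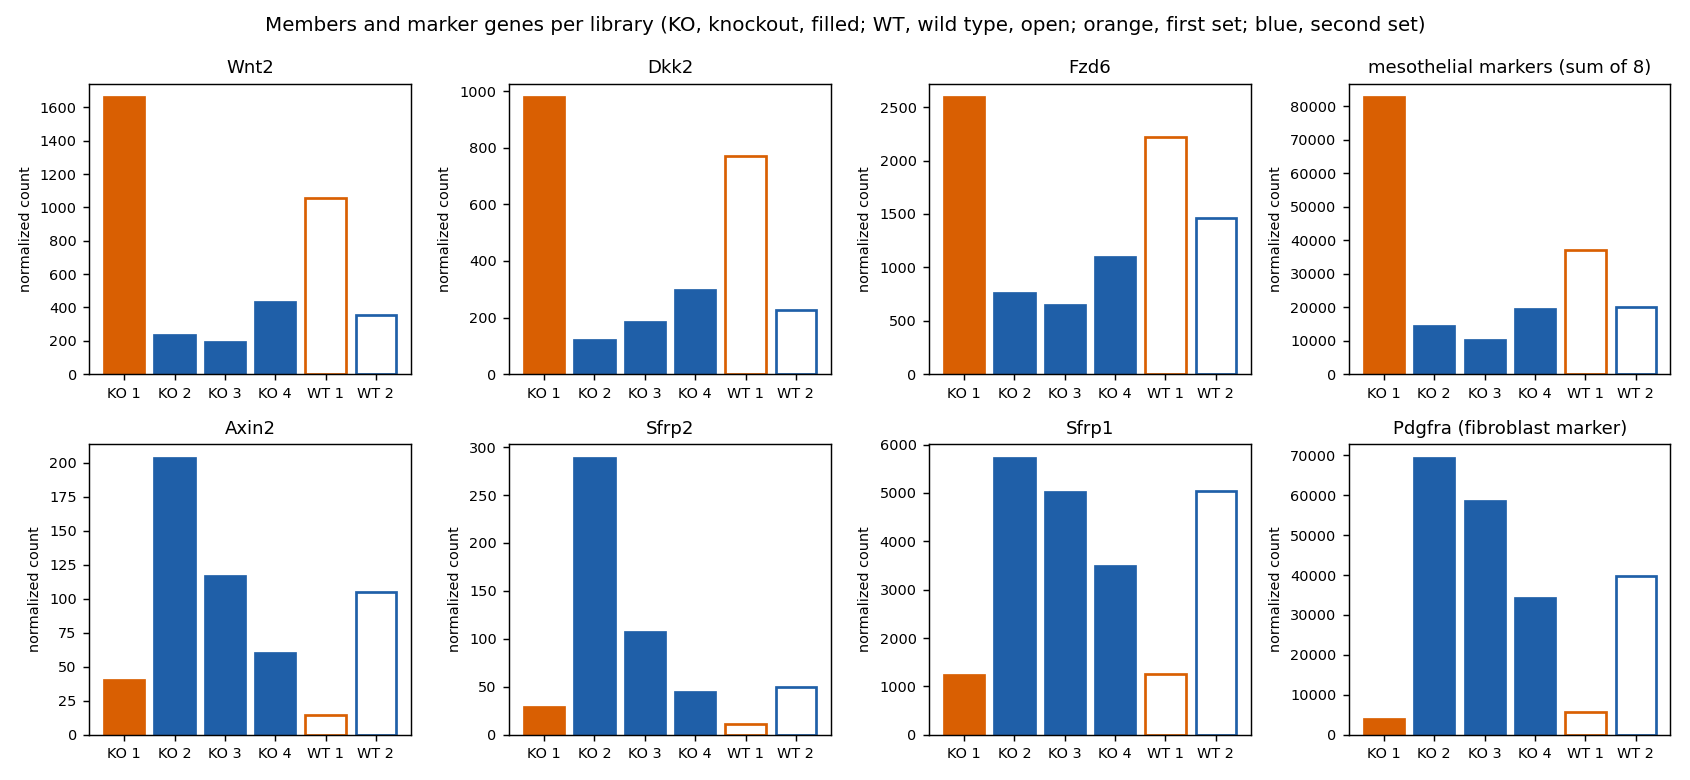
Normalized counts per library of 6 members beside the mesothelial marker sum (top right) and Pdgfra (bottom right), with knockout libraries filled and wild type libraries open; bars start at 0 and each panel has its own scale. Wnt2, Dkk2, Fzd6 and the mesothelial sum are highest in knockout 1 and wild type 1, and Axin2, Sfrp2, Sfrp1 and Pdgfra are lowest in those libraries.

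Other genes of the pathway gave no call either. Of the 102 gene symbols in 8 lists, which hold Ccn4 and Ccn5 also as Wisp1 and Wisp2, 92 were tested. Of these, 0 were called higher or lower by limma, edgeR or DESeq2, with or without adjustment for library set. An unadjusted p under 0.05 was reached in limma by 3 of the 92 with genotype alone (Lgr4, Celsr1 and Prox1), against 0.939% of all genes. After adjustment for library set it was reached by 5 (Lgr4, Igfbp4, Vangl2, Celsr1 and Prox1), against 3.51% of all genes. These genes were named after their values were seen. Prox1 is also a marker of lymphatic endothelium, a list with 6 of 7 expressed and Ccl21a at 0 in every library. Its sum was 54665, 29146, 25233 and 23983 counts in knockout 1 to 4 and 76205 and 54820 in wild type 1 and 2. Knockout 1 thus lay just below wild type 2. Prox1, Lyve1, Flt4 and Mmrn1 were lower in all knockout libraries than in both wild type libraries, as were 2.32% of all tested genes. Pdpn and Reln were not, and Pdpn was highest in knockout 1, at 12158 counts against 11184 and 7906 in wild type 1 and 2. The part of lymphatic RNA in Prox1 was not tested. With genotype alone 45 were above 0 and 47 below, with a median log2 difference of −0.01, against 0.00 for all genes. After adjustment 42 were above 0 and 50 below, with the same rounded medians.

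Of 8 tested genes of the R-spondins, their Lgr receptors and the ubiquitin ligases that remove Frizzled, 7 were above 0 and 1 (Lgr6) below, with a median of 0.36, or 0.30 after adjustment for library set. Rspo3, an R-spondin of endothelial cells, had 3797, 5613, 6730 and 6942 counts in knockout 1 to 4 and 2350 and 6010 in wild type 1 and 2. Knockout 2 was below wild type 2, and the log2 difference was 0.58, or 0.33 ± 0.17 (SE, limma adjusted p = 0.999) after adjustment for library set. Lgr4, an R-spondin receptor, had 1043, 1129, 1200 and 999 counts in knockout 1 to 4. Like 2.36% of all tested genes, Lgr4 was higher in all of these than in wild type 1 and 2, at 720 and 948 counts. Its log2 difference was 0.40 ± 0.16 (SE, limma adjusted p = 1.00), or 0.35 ± 0.12 after adjustment for library set (SE, limma adjusted p = 0.999).

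Of the other secreted or membrane antagonists, 8 were tested, 2 above 0 and 6 below, with a median of −0.24, or −0.21 with the same counts after adjustment. The abundant ones were Igfbp4, which binds insulin-like growth factors (6502 ± 1629 counts in knockout, SD, n = 4, and 6908 ± 2143 in wild type, SD, n = 2), and Kremen1, a Dkk receptor (2796 ± 416 in knockout and 3222 ± 729 in wild type). Of the 4 tested genes of Wnt secretion, 1 was above 0 and 3 below, with a median of −0.08, but after adjustment for library set 4 were above 0 and 0 below, with a median of 0.03. The one above 0 in both was Porcn, the acyltransferase that attaches the lipid to Wnt proteins, which had 115, 1203, 886 and 263 counts in knockout 1 to 4 and 97.4 and 346 in wild type 1 and 2. Its log2 difference was 1.20 ± 1.07, or 0.65 ± 0.65 after adjustment for library set (SE, limma adjusted p = 1.00 and 0.999). It ordered the libraries as Axin2 and Sfrp2 did, and it was named after its values had been seen. Wls, the carrier of Wnt proteins to the cell surface, differed by 0.02 ± 0.20 and Tmed5 by 0.02 ± 0.12 (log2, SE, after adjustment for library set).

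Among the intracellular genes, the cytoplasmic list of 19 tested genes had a median log2 difference of −0.02, with 9 above 0 and 10 below, or 8 above and 11 below after adjustment for library set (median −0.01). Ctnnb1, the beta-catenin gene, differed by −0.13 ± 0.07 and the kinase gene Csnk1a1 by −0.03 ± 0.10 (log2, SE, after adjustment for library set). Of 15 nuclear effectors 8 were above 0 and 7 below, with a median of 0.02, while after adjustment 6 were above 0 and 9 below, with a median of −0.03. After adjustment the corepressor gene Tle3 and the coactivator gene Bcl9l differed by 0.03 ± 0.08 and 0.13 ± 0.11. Of 15 planar cell polarity genes 9 were above 0 and 6 below (median 0.05), and after adjustment 6 above and 9 below (median −0.05). The abundant Daam1 differed by 0.13 ± 0.10 and Rhou by 0.04 ± 0.15 in the adjusted fit. Of the 8 other receptors 5 were above 0 and 3 below (median 0.15), and after adjustment 4 above and 4 below (median 0.00), where Adgra2 was at −0.31 ± 0.26 and Ptk7 at 0.20 ± 0.13. Of 15 further feedback and target genes 4 were above 0 and 11 below (median −0.29), or 5 above and 10 below after adjustment (median −0.18). Ccnd1, the cyclin D1 gene, had 34636, 12420, 13584 and 12519 counts in knockout 1 to 4 and 47299 and 12782 in wild type 1 and 2, and Slc2a1, a glucose transporter gene, differed by 0.04 ± 0.08.

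**Figure D4:**
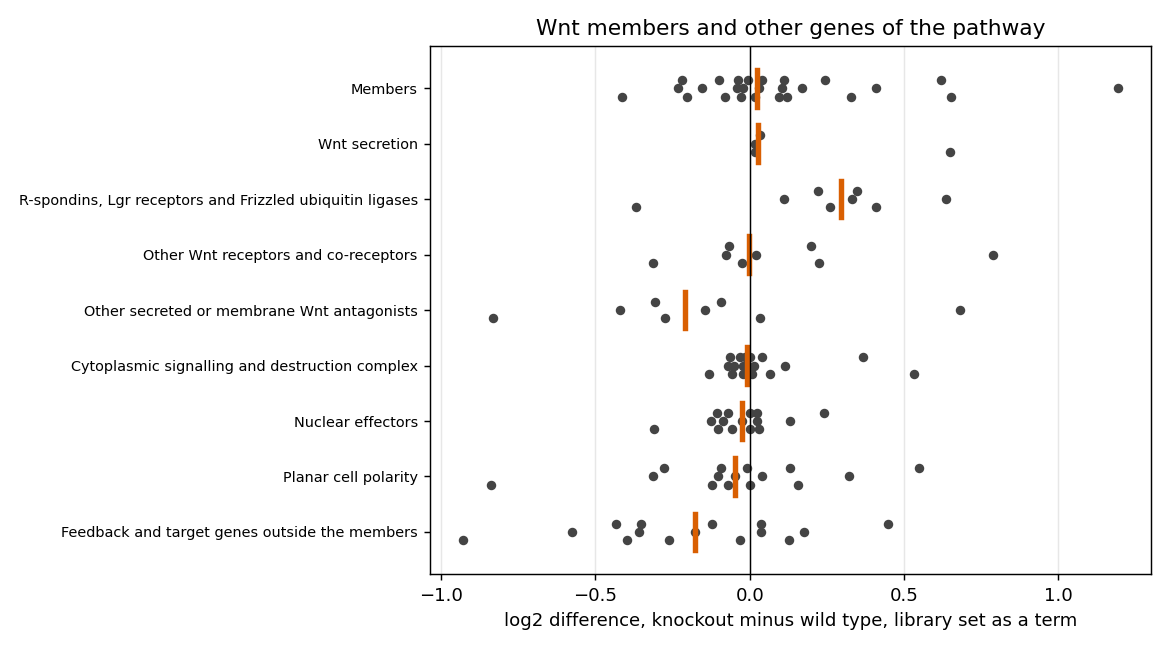
Log2 difference, knockout minus wild type after adjustment for library set, for the 26 tested members and the 92 tested genes of 8 pathway lists; each dot is a gene, orange bars are list medians, and vertical offsets only separate dots. The R-spondin list has the highest median, 0.30, and no gene shown was called by any fit.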

How the data were processed

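Poly(A) RNA of 6 libraries was sequenced as single-end reads of 100 nt, per the labels. The authors deposited 1 table of 53735 genes whose unit is a normalized count signal, read counts scaled by 1 factor per library. Per the submitters' processing notes, Trimmomatic 0.36, STAR 2.6.0c and featureCounts of Subread 1.6.1 were used with GRCm38.p6; the series design text names Trimmomatic 0.32, STAR 2.4.2a, HTSeq, GENCODE M17 and DESeq2 1.10.1. Which set made the table, and whether counting used the strand, is not given in these sources, and reads of antisense genes cannot be told apart: annotated exons on the opposite strand overlap Lef1 by 1208 nt, Fzd5 by 1233, Wnt11 by 364 (a pseudogene), Wnt5a by 358, Sfrp2 by 347, Wnt7b by 324, Axin2 by 209 and Fzd6 by 152.

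In each column every value was a multiple of the lowest one above 0, and 100% of values gave whole reads within 1e-06 of a read. All pairs of same-genotype libraries differed beyond sampling noise (chi-square per gene of 26.2 to 397). Genotypes were compared with limma 3.58.1 (trended eBayes, R 4.3.3) on log2(normalized count + 1), genotype only, over 15229 genes averaging 10 or more, with Benjamini-Hochberg adjustment over all of them and a threshold of 0.05. This scale understates fold changes of low genes. At a mean of 10, counting error alone is 31.6% (coefficient of variation). Alternatives were other pseudocounts, filters and scaling, recovered reads in DESeq2 1.42.0 and in edgeR 4.0.16 (quasi-likelihood), the library set or the title number as a term, the second set alone and each library left out. The library sets came from average-linkage clustering of all tested genes. A member is given with its own test where its main log2 difference was at least 0.5, its genotype ranges were separated or a fit called it; Fzd4, Lrp6 and Dkk3 were added after their values were seen. Pathway genes named are the 2 most abundant of each list, any that a fit called, and others said to be chosen later. Members, lists and rules were chosen with earlier results of these data known. Gene positions and exon lengths are from GENCODE M21 on GRCm38, promoters from RefSeq.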

Additional observations from a re-analysis of the deposited data

Results flagged for a closer look

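In 4 members, knockout 1 lay far above the other 3 knockout libraries, by more than Dixon's 95% critical value for 4 samples. Knockout 1 had 1660 counts for Wnt2, 892 for Wnt9a, 1019 for Fzd5 and 356 for Sfrp4. The nearest other knockout values were 434, 407, 490 and 40.4. Chance alone flags about 1 in 20 such groups, and 26 members were examined (4 of 26). Over all 15229 tested genes the same rule picked 13.8%, and knockout 1 was the highest library and apart in 9.53%. Wild type 1, of the same library set, had 1056, 559, 905 and 151 counts for these genes, each above all 4 libraries of the second set.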

How the results depend on the processing

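Under the 18 other settings 0 members were called. In 3 of them (the larger set alone, and without wild type 1 or wild type 2) 1 wild type library was left, assumed to vary like the knockout libraries, so a lack of calls there says nothing about stability. The count over all genes, 1 in the main test, was 2 with pseudocount 5, 7 with DESeq2 and genotype only, 2 with edgeR and 50 with DESeq2 after adjustment for library set, 0 in the larger library set alone and 0 with the title number as a replicate block; it ranged from 0 to 2 when each library was left out (0 without knockout 2, 3 or 4, and 2 without knockout 1). Of 143 values of the 8 members tested singly, 126 kept their direction and side of the threshold and 17 reversed. The log2 difference of Wnt2 was 0.025 with the replicate block, and 0.029 (limma), 0.087 (edgeR) and 0.071 (DESeq2) after adjustment for library set. That of Sfrp4 was 0.16 with edgeR and 0.15 with DESeq2 and genotype only, 0.29 with the replicate block, and 0.040, 0.10 and 0.030 after adjustment for library set. That of Dkk2 was 0.048 with edgeR and 0.036 with DESeq2 after the same adjustment. The cause was not tested. With each library left out, Wnt2 ranged from −1.31 to 0.27, Fzd1 from −0.087 to 1.34, Sfrp4 from −1.49 to 0.11, Dkk2 from −1.44 to 0.33, Axin2 from −0.26 to 2.50, Fzd6 from −1.14 to −0.42, Sfrp2 from 0.67 to 2.69 and Lef1 from 0.23 to 0.84; each sign change came without wild type 1. Same-numbered libraries deviated together from their genotype mean (r = 0.841 for number 1 and 0.562 for number 2). The deviations of the 2 wild type libraries are equal and opposite, so these are not 2 separate observations. Both number 1 libraries are in the first set and both number 2 libraries in the second. With 2 shared numbers this does not show a pairing, and numbers 3 and 4 exist for knockout alone. DESeq2 gave no p-value for Sfrp4 with genotype only, adjusted or not, so the member counts of that fit leave Sfrp4 out. The 2 wild type libraries fall in different sets, which limits what the genotype comparison can show.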
